A study of Homo sapiens with 19 samples.

Results

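The soluble RNA of Caco-2 culture medium (S100) was set against the pellet of the first high-speed spin (P40) by small RNA sequencing. The comparison takes every library that the labels put in either fraction and that lists at least 100 miRNAs, which gives 7 libraries of 19 in the series, 3 of S100 (replicates 2, 3 and 4) and 4 of P40 (replicates 1 to 4). Caco-2 is an established human colorectal epithelial line, labelled here with a WT genotype, and all 7 libraries come from its medium, with no agent named beyond the change of medium. At 80% confluence the cells were moved for 24 h to medium without serum or antibiotics. That medium was cleared of debris and spun at 40000 xg, and the RNA of this pellet is P40. What did not pellet was spun again at 100000 xg, and the RNA left in the second supernatant is S100. S100 RNA was precipitated before the Trizol step and P40 RNA went into Trizol directly, so fraction and RNA preparation cannot be told apart. Separate cultures are not stated for the replicates, so a p-value reflects the spread among these libraries, which may be technical.

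Cells release miRNAs into their medium in membrane vesicles and in complexes with proteins such as Argonaute or with lipoproteins. Spins of this kind pellet larger vesicles and aggregates first, and leave small protein-bound complexes in the supernatant. A miRNA is cut from a hairpin precursor, of which either arm (5p or 3p) can be loaded onto Argonaute, and it finds its target RNAs mainly through the seed, bases 2 to 8 from its 5′ end. miRNAs with the same seed form a family and share many predicted targets.

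The sequences that carry the results are given 5′ to 3′ with the seed in capitals. They are mature sequences from RefSeq on GRCh38.p14, which matched 199 of the 227 miRNAs tested. The first 7 belong to miRNAs that were higher in S100 and are shown because they take large shares of its counts or differ most from P40.
miR-423-5p: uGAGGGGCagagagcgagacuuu
miR-378a-3p: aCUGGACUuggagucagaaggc
miR-210-3p: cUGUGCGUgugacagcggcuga
miR-221-3p: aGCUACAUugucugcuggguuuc
miR-301a-3p: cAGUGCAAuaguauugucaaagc
miR-296-5p: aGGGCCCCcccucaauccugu
miR-1228-5p: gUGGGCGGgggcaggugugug
The next 6 were lower in S100 than in P40.
miR-92a-3p: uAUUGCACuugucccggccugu
miR-7704: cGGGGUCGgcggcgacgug
miR-200c-3p: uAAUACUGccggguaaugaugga
miR-103a-3p: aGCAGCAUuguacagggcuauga
miR-4485-3p: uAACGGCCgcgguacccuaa
miR-3651: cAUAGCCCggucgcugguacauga
The last set holds relatives that share a seed and yet differed in direction between the fractions. Substitutions between them are counted from the first base.
let-7a-5p: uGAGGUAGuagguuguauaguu
let-7b-5p: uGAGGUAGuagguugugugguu
let-7c-5p: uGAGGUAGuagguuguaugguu
let-7e-5p: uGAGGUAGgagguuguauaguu
let-7f-5p: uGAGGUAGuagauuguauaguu
miR-23a-3p: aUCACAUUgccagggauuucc
miR-23b-3p: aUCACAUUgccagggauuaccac
miR-100-5p: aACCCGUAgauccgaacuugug
miR-99b-5p: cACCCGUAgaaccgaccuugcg
miR-125b-5p: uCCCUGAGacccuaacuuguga
miR-125a-5p: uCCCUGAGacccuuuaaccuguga
miR-92b-3p: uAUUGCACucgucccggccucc
miR-454-3p: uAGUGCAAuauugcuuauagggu

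S100 libraries held 198878 to 225290 counts over 622 to 662 miRNAs, and P40 libraries 10490 to 26096 counts over 289 to 349 miRNAs. At an equal depth of 10490 counts, 299 to 300.3 miRNAs would be listed in an S100 library, against 272 to 289 in a P40 library. The most abundant 10 miRNAs took 56.1% to 56.5% of the counts in S100 and 47.8% to 59.6% in P40. S100 libraries were alike (Spearman correlation across tested miRNAs 0.968 to 0.976), whereas P40 libraries fell into pairs. P40 replicates 1 and 2 (0.902) and replicates 3 and 4 (0.853) were closer to each other than across the pairs (0.761 to 0.805). Correlations between S100 and P40 libraries were 0.541 to 0.612. S100 replicate 1 held 48 counts and was left out. Reads that fit several near-identical miRNAs may have been shared among them, since the handling of such reads was not given in the sources used here.

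Levels are given as CPM, the counts brought to a common library size with TMM factors (trimmed mean of M values). They are shares of a library's miRNA counts, so an amount of a miRNA per volume of medium, and with it fewer particles or less RNA per particle, cannot be told apart from a change in share. Values per library are given for S100 replicates 2, 3 and 4 and then for P40 replicates 1 to 4. A log2 fold change is S100 over P40 with its standard error. Called means an adjusted p below 0.05 in the quasi-likelihood test of edgeR, adjusted after Benjamini and Hochberg over 227 miRNAs. There were 120 called miRNAs, 52.9% of those tested, with 57 higher in S100 (25.1%) and 63 lower (27.8%). The median log2 fold change of all tested miRNAs was -0.30. Of the 120, 112 did not overlap between the groups, and over all tested miRNAs 120 (52.9%) did not overlap.

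**Figure D1:**
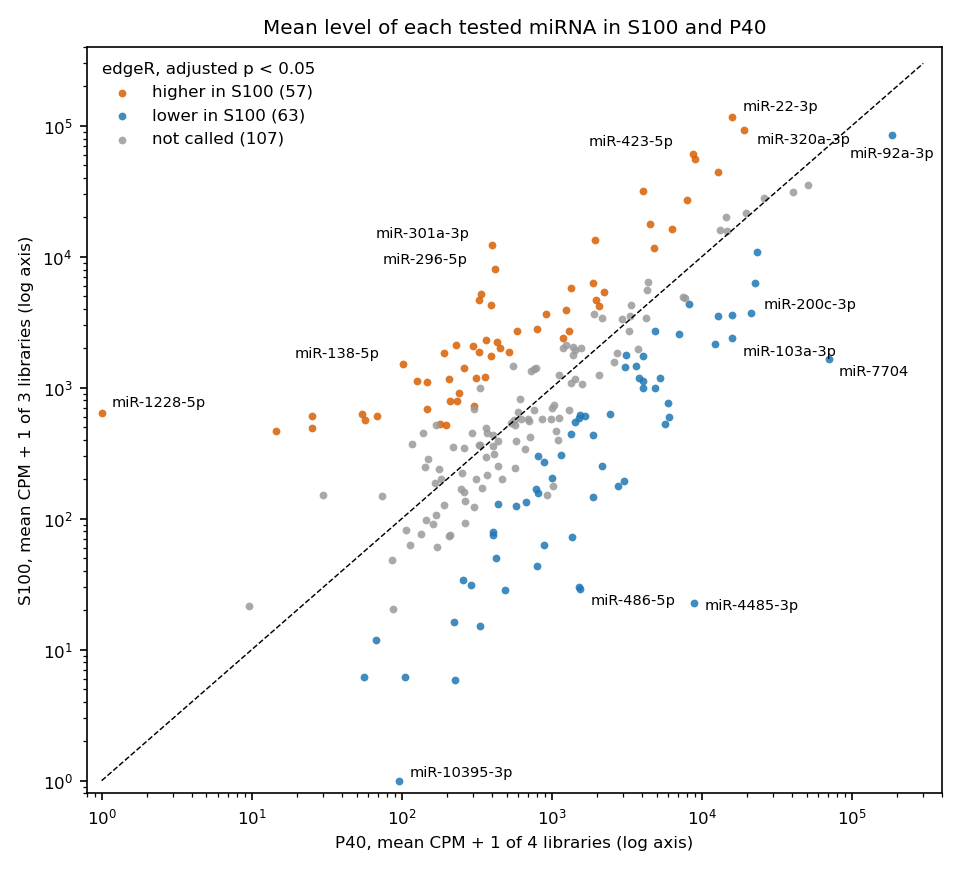
Mean level of each of 227 tested miRNAs in S100 (vertical axis) against P40 (horizontal axis), both as TMM-scaled CPM plus 1 on log axes. Colours mark the 57 miRNAs called higher in S100, the 63 called lower and those not called, and the dashed line marks equal levels.

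The S100 libraries were taken up largely by miRNAs that were minor in P40. The 57 miRNAs called higher together held 60.5%, 59.4% and 55.4% of the counts in the S100 libraries, against 10.3%, 10.2%, 14.8% and 17.7% in the P40 libraries. The 63 called lower held 13.3%, 14.8% and 15.2% in S100, against 58.5%, 61.8%, 53.5% and 43.4% in P40.

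Among the most abundant miRNAs of S100, miR-22-3p, a widely expressed miRNA, had 136620, 92129 and 119991 CPM in S100, against 9528, 14243, 17913 and 22297 CPM in P40. All S100 libraries lay far above all P40 libraries (log2 fold change 2.86 ± 0.31, edgeR adjusted p = 8.1e-08). miR-320a-3p, whose hairpin is cut without the Drosha step, had 88042, 91475 and 100043 CPM in S100, against 10092, 11448, 23826 and 31153 CPM in P40. The P40 pairs differed, with replicates 3 and 4 higher, and none reached an S100 library (2.29 ± 0.35, edgeR adjusted p = 1.7e-05). miR-423-5p, from a hairpin in an exon of NSRP1 at chr17:30117079-30117172 (+, GRCh38.p14, GENCODE v29), had 62431, 60844 and 58360 CPM in S100, against 3886, 3977, 14074 and 13125 CPM in P40. It had the same order of P40 pairs and no overlap (2.79 ± 0.46, edgeR adjusted p = 4.5e-05).

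miR-378a-3p, from an intron of PPARGC1B at chr5:149732825-149732890, had 56968, 48451 and 60651 CPM in S100, against 7334, 10910, 9302 and 8539 CPM in P40. P40 libraries were alike here (2.62 ± 0.26, edgeR adjusted p = 8.1e-08). miR-483-5p, from an intron of the growth factor gene IGF2, had 37164, 51306 and 44551 CPM in S100, against 9215, 9674, 16668 and 15656 CPM in P40. Every S100 library was above every P40 library (1.79 ± 0.28, edgeR adjusted p = 2.1e-05). miR-210-3p, the miRNA most regularly induced by low oxygen, lies in an intron of MIR210HG at chr11:568089-568198 (-). It had 32389, 28389 and 35487 CPM in S100, against 6707, 6396, 968 and 2293 CPM in P40 (2.98 ± 0.52, edgeR adjusted p = 1.0e-04). Its P40 pairs ran the other way from those of miR-423-5p, and against P40 replicates 3 and 4 alone its log2 fold change was 4.78. In that fit the median log2 fold change of the tested miRNAs was 0.53 higher as well. miR-221-3p, which targets the cell cycle inhibitor CDKN1B, had 29133, 17553 and 34223 CPM in S100, against 5328, 8761, 9821 and 8144 CPM in P40 (1.75 ± 0.33, edgeR adjusted p = 1.5e-04).

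**Figure D2:**
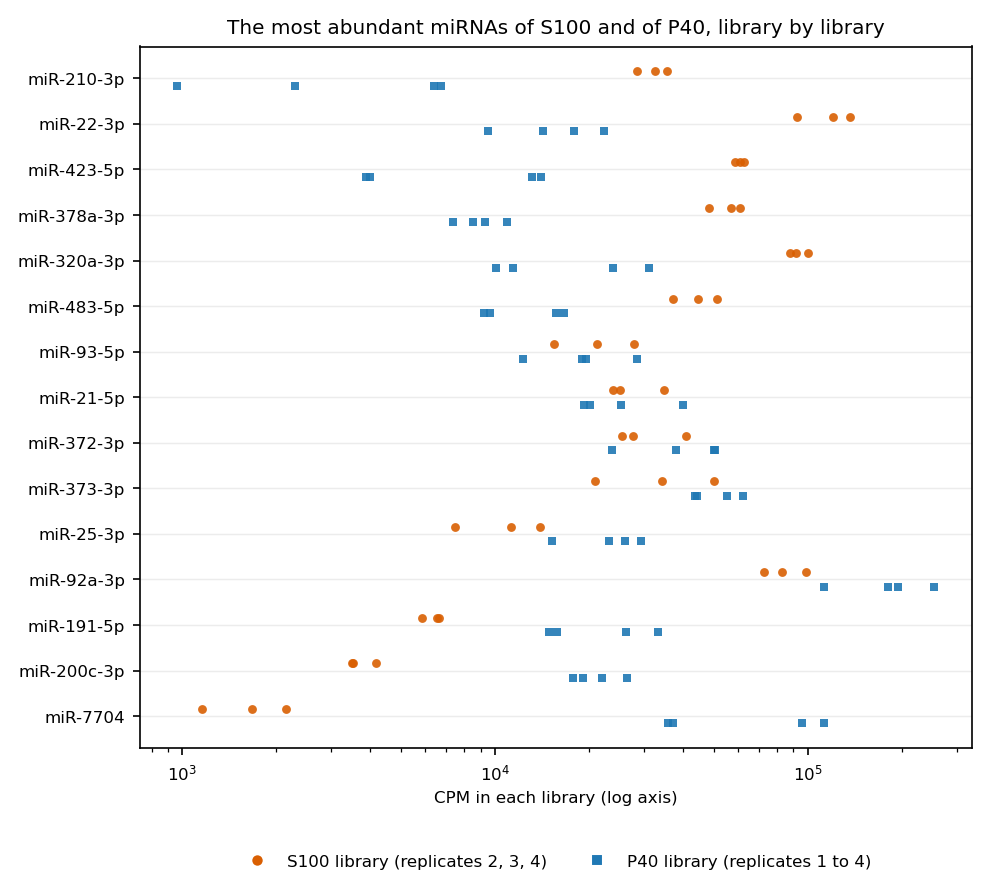
Level in each library (dots, TMM-scaled CPM on a log axis) of the 15 miRNAs that rank among the 10 most abundant of S100 or of P40. miR-7704 at 1160 to 2149 CPM in S100 against 35818 to 112437 CPM in P40 is the widest gap, while miR-21-5p, miR-93-5p, miR-372-3p and miR-373-3p overlap.

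Below these, several miRNAs of middle level stood far higher in S100. miR-301a-3p, from an intron of SKA2 at chr17:59151136-59151221 (-), had 12210, 12634 and 12309 CPM in S100, against 627, 699, 277 and 0 CPM in P40. The S100 libraries were within a few percent of each other and no P40 library came near them (4.92 ± 0.52, edgeR adjusted p = 8.1e-08). miR-296-5p, from an imprinted region at chr20:58817615-58817694, had 7281, 9991 and 7140 CPM in S100, against 251, 322, 311 and 791 CPM in P40 (4.34 ± 0.49, edgeR adjusted p = 1.9e-07). miR-338-3p had 6408, 3213 and 6071 CPM in S100, against 564, 537, 0 and 237 CPM in P40 (4.03 ± 0.74, edgeR adjusted p = 1.3e-04). miR-138-5p had 1592, 1128 and 1824 CPM in S100, against 188, 215, 0 and 0 CPM in P40 (3.95 ± 0.76, edgeR adjusted p = 1.5e-04). Both were highest in P40 replicates 1 and 2, and the groups did not overlap. In P40 replicates 3 and 4 these levels rest on 0 and 3 counts of miR-338-3p and no count of miR-138-5p.

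miR-1228-5p, from an intron of LRP1, was counted 413 times in S100 (580, 936 and 393 CPM) and 0 times in P40. With 3 counts over the P40 group as the floor, it was at least 16.7-fold higher in S100. miR-30a-3p had 1 count in P40, and miR-23a-5p and miR-103a-2-5p had 2 each. Their ratios of S100 to P40 were 34.8 (exact 95% counting interval 6.19 to 1379), 22.7 (6.24 to 188) and 18.2 (5.01 to 151). No molecular identifiers were used, so these intervals cover counting error only. The floor covers that of the group without a count, and takes the counts of the other group as exact.

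Whole families were higher together in S100. All 4 tested members of the miR-320 family were higher, with a median log2 fold change of 2.37 against -0.30 over all tested miRNAs. Together they took 9.28% to 10.4% of the counts in S100, against 1.20% to 3.98% in P40. miR-320b had 3445, 3367 and 4073 CPM in S100, against 376, 860, 1176 and 1265 CPM in P40 (1.97 ± 0.44). miR-320c and miR-320d, which are shorter at the 3′ end and differ from miR-320b by C20U and G19A, moved by 2.80 ± 0.50 and 2.45 ± 0.65. miR-320d had 2, 0, 11 and 4 counts in P40.

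All 4 tested members of the miR-378 family were higher as well (median 3.04), with 5.81% to 6.32% of counts in S100, against 0.902% to 1.155% in P40. miR-378c, which differs from miR-378a-3p by G21A and C22G and by added bases at the end, had 4467, 3737 and 4571 CPM in S100, against 627, 537, 104 and 316 CPM in P40 (3.47 ± 0.58). miR-378a-5p, the other arm of the miR-378a hairpin, had 2439, 1777 and 2197 CPM in S100, against 125.4, 376, 104 and 316 CPM in P40 (3.26 ± 0.60). Both arms of this hairpin were thus higher in S100. The log2 fold change of miR-378d was 2.81 ± 0.79, and rests on 1, 0, 6 and 0 counts in P40.

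The seed family of miR-130 and miR-301 had 4 higher members and 1 lower of 5 tested (median 3.19), and took 3.17% to 3.96% of counts in S100, against 0.410% to 0.965% in P40. miR-301b-3p, which differs from miR-301a-3p by A10G and G11A, had 4010, 5089 and 4917 CPM in S100, against 564, 322, 34.6 and 395 CPM in P40 (3.92 ± 0.58). miR-130b-3p had 15162, 18177 and 20409 CPM in S100, against 7271, 5052, 3285 and 2609 CPM in P40 (1.98 ± 0.37, and 3.03 against P40 replicates 3 and 4 alone). The median of the tested miRNAs was also 0.53 higher in the latter fit. miR-130a-3p moved by 3.19 ± 0.71. The lower member was miR-454-3p, which lies in SKA2 as miR-301a-3p does, at chr17:59137758-59137872 (-). It had 35.9, 20.8 and 41.9 CPM in S100, against 62.7, 376, 346 and 237 CPM in P40 (-2.95 ± 0.63, edgeR adjusted p = 4.6e-04). Its S100 libraries all lay below the lowest P40 library, but that library held 1 count. The counts of miR-454-3p were 7, 5 and 8 in S100, against 1, 7, 10 and 3 in P40.

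All 3 members of the miR-29 family, repressors of collagen genes, were higher in S100 (median 1.84), with 0.676% to 0.987% of counts, against 0.241% to 0.610% in P40. miR-29a-3p had 4190, 5243 and 6611 CPM in S100, against 2069, 1559, 1660 and 3637 CPM in P40 (1.28 ± 0.40). miR-29c-3p moved by 1.84 ± 0.48 and miR-29b-3p by 1.99 ± 0.68, and the call of miR-29b-3p was lost without P40 replicates 3 and 4 together. Of the miR-423 and miR-483 arms 2 of 4 were higher (median 1.20), both of them the 5p arms. Of miR-221 and miR-222, which share a seed and a transcript, miR-221-3p was higher, and miR-222-3p was not called. miR-222-3p had 2213, 1548 and 2265 CPM in S100, against 439, 2849, 1833 and 1186 CPM in P40 (0.33 ± 0.43), and its groups overlapped. All called members named here kept their call when any S100 library was left out.

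**Figure D3:**
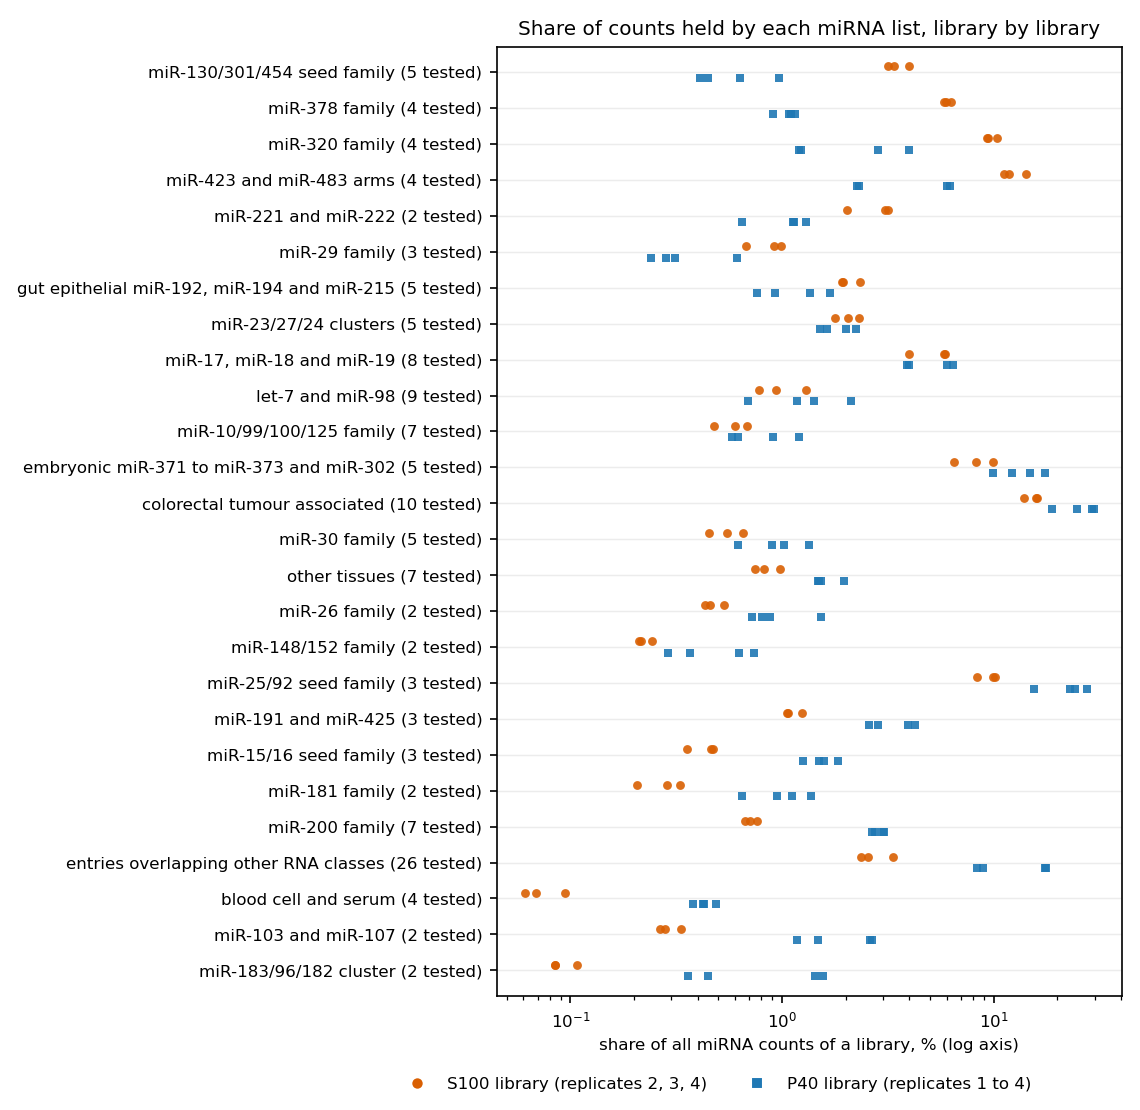
Share of the miRNA counts of each library (percent, log axis) taken by each of 26 lists of related miRNAs, with S100 and P40 libraries as separate dots. The miR-378 family at 5.81% to 6.32% in S100 against 0.902% to 1.155% in P40, and the entries overlapping other RNA classes at 2.35% to 3.36% against 8.35% to 17.6%, lie apart in opposite directions.

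Among the miRNAs called lower, the gap in mean share of counts between P40 and S100 was widest for miR-92a-3p, miR-7704 and miR-200c-3p. miR-92a-3p, a member of the miR-17~92 cluster (a copy lies in MIR17HG at chr13:91351314-91351391), had 72212, 82533 and 98848 CPM in S100, against 194324, 253412, 180269 and 112278 CPM in P40. The groups did not overlap, but the P40 libraries spread widely (-1.13 ± 0.28, edgeR adjusted p = 0.0016). Its log2 fold change was -0.75 without P40 replicate 3 and -0.70 without S100 replicate 2, where the call was lost. It was -0.37 without P40 replicates 1 and 2 together, also not called. The median of the tested miRNAs rose by 0.51, 0.36 and 0.53 in these 3 fits. With no filter on low counts miR-92a-3p was not called either. miR-7704, annotated in an exon of HOXD1 at chr2:176188843-176188901, had 1160, 1677 and 2149 CPM in S100, against 95532, 112437, 37071 and 35818 CPM in P40. It held 0.160% of counts in S100, against 7.50% in P40, where it was second by mean share (-5.40 ± 0.60, edgeR adjusted p = 3.5e-07).

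miR-200c-3p, which represses the mesenchymal factors ZEB1 and ZEB2 in epithelial cells, had 3486, 3529 and 4163 CPM in S100, against 22065, 26443, 19192 and 17790 CPM in P40. Every P40 library lay far above S100 (-2.52 ± 0.27, edgeR adjusted p = 8.1e-08). Of its family, 2 of 7 tested members were lower (median -0.62), and the family took 0.668% to 0.758% of counts in S100, against 2.65% to 3.02% in P40. miR-141-3p, which shares the transcript of miR-200c at chr12:6963699-6964191, had 1499, 1785 and 2050 CPM in S100, against 1943, 1397, 1037 and 1186 CPM in P40. Its groups overlapped and it was not called (0.36 ± 0.38). The other lower member, miR-200b-3p (-1.57 ± 0.51), lost its call without any 1 S100 library or P40 replicate 4.

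Among miRBase entries that overlap other RNA classes such as rRNA, snoRNA, tRNA or mitochondrial RNA, 14 of 26 tested were lower in S100 and 1 was higher (median -1.70). They took 2.35% to 3.36% of counts in S100, against 8.35% to 17.6% in P40, and miR-7704 is among them. miR-4485-3p, in an exon of MTRNR2L8 at chr11:10508270-10508326, which resembles mitochondrial rRNA, had 5.13, 12.5 and 47.2 CPM in S100, against 11283, 12953, 7504 and 3953 CPM in P40. This was the largest fitted fall among the tested miRNAs (-8.60 ± 0.82, edgeR adjusted p = 8.1e-08). The S100 levels rest on 1, 3 and 9 counts of miR-4485-3p, so the size of the fall is poorly fixed. miR-3651, which overlaps the snoRNA gene SNORA84 at chr9:92292458-92292547, had 205, 233 and 142 CPM in S100, against 4451, 3708, 2455 and 1581 CPM in P40 (-3.97 ± 0.41, edgeR adjusted p = 8.1e-08). Both entries were separated by far more than the spread of either group.

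miR-1275, which is not in that list, had 10.3, 8.32 and 68.2 CPM in S100, against 2257, 2096, 692 and 1028 CPM in P40 (-5.65 ± 0.93). Its S100 levels rest on 2, 2 and 13 counts. In the list miR-4454 moved by -3.94 ± 0.64, miR-12136 by -4.23 ± 0.63 and miR-4516 by -2.50 ± 0.69. miR-4516 lost its call without S100 replicate 2, and was at -1.0 without P40 replicates 1 and 2 together. miR-10395-3p had 0 counts in S100 and 7 in P40. With 3 counts over the S100 group as the floor it was 19.2-fold lower. This ratio takes the 7 P40 counts as exact, so it is not a lower bound. The higher entry was miR-4488, with 11563, 17291 and 11733 CPM in S100, against 2633, 1935, 1660 and 1581 CPM in P40 (2.79 ± 0.66). Its call was lost without P40 replicates 3 and 4 together. miR-1246 was not called, with 5063, 3358 and 6249 CPM in S100, against 3761, 9459, 10651 and 6325 CPM in P40 (-0.63 ± 0.39). miR-10401-5p was called (-2.32 ± 0.93) but had 1254, 269, 104 and 0 CPM in P40 around 73.4 to 83.2 CPM in S100, and its direction turned to 0.61 without P40 replicates 1 and 2 together.

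miR-103a-3p and miR-107, which lie in introns of the pantothenate kinase genes, were both lower in S100. miR-103a-3p had 2198, 2043 and 3009 CPM in S100, against 21250, 23433, 8991 and 10200 CPM in P40 (-2.72 ± 0.38, edgeR adjusted p = 4.0e-06). miR-107, which differs from it by G22C, moved by -1.95 ± 0.35. miR-182-5p and miR-183-5p, of a cluster raised in many tumours, had 719, 483 and 598 CPM and 277, 241 and 241 CPM in S100. In P40 miR-182-5p had 2131, 2741, 8922 and 10437 CPM (-3.33 ± 0.63), and miR-183-5p had 1066, 1774, 3735 and 2135 CPM (-3.11 ± 0.57). All 4 of these miRNAs were separated between the groups and kept their call in each setting run. The values of miR-103a-3p and miR-107 were -1.57 and -1.11 against P40 replicates 3 and 4 alone, where the median of the tested miRNAs rose by 0.53.

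miR-30d-5p had 657, 836 and 818 CPM in S100, against 6582, 5106, 6536 and 5535 CPM in P40 (-2.94 ± 0.31, edgeR adjusted p = 8.1e-08). P40 libraries varied little here and lay several times above S100. Of the miR-30 family 1 of 5 tested was higher and 1 lower (median 0.67). miR-30b-5p, with 4354, 3225 and 2627 CPM in S100, against 1254, 537, 2075 and 4823 CPM in P40, was not called (0.67 ± 0.56).

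The cell cycle repressor miR-16-5p had 3871, 3608 and 3088 CPM in S100, against 15232, 14189, 10409 and 11702 CPM in P40 (-1.87 ± 0.31, edgeR adjusted p = 4.1e-05). Against P40 replicates 3 and 4 alone it was -1.20, in a fit that raised the median of the tested miRNAs by 0.53. Of its seed family 2 of 3 tested were lower (median -1.87), and miR-15a-5p was not called (0.10 ± 0.47). miR-15b-5p (-2.13 ± 0.70) lost its call without any 1 S100 library or P40 replicate 4, and was -1.13 without the last. miR-191-5p had 5848, 6542 and 6648 CPM in S100, against 14856, 15855, 33267 and 26330 CPM in P40 (-1.83 ± 0.30), and -1.15 without P40 replicate 3. Of miR-191 and the miR-425 arms 1 of 3 was lower (median -0.67). Both tested miR-181 members were lower (median -1.74). miR-181a-5p moved by -2.16 ± 0.39, and miR-181b-5p by -1.32 ± 0.39, with its call lost without S100 replicate 2, S100 replicate 3 or P40 replicate 3. miR-26a-5p (-0.92 ± 0.32) and miR-148a-3p (-1.22 ± 0.40) were each the 1 lower member of 2 tested in its family (medians -0.61 and -0.56). They lost their calls when any S100 library or P40 replicate 3 or 4 was left out, and with no filter on low counts. Without P40 replicate 3 they were at -0.24 and -0.64. With median-of-ratios or upper quartile scaling, or by DESeq2, miR-26a-5p was not called either.

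**Figure D4:**
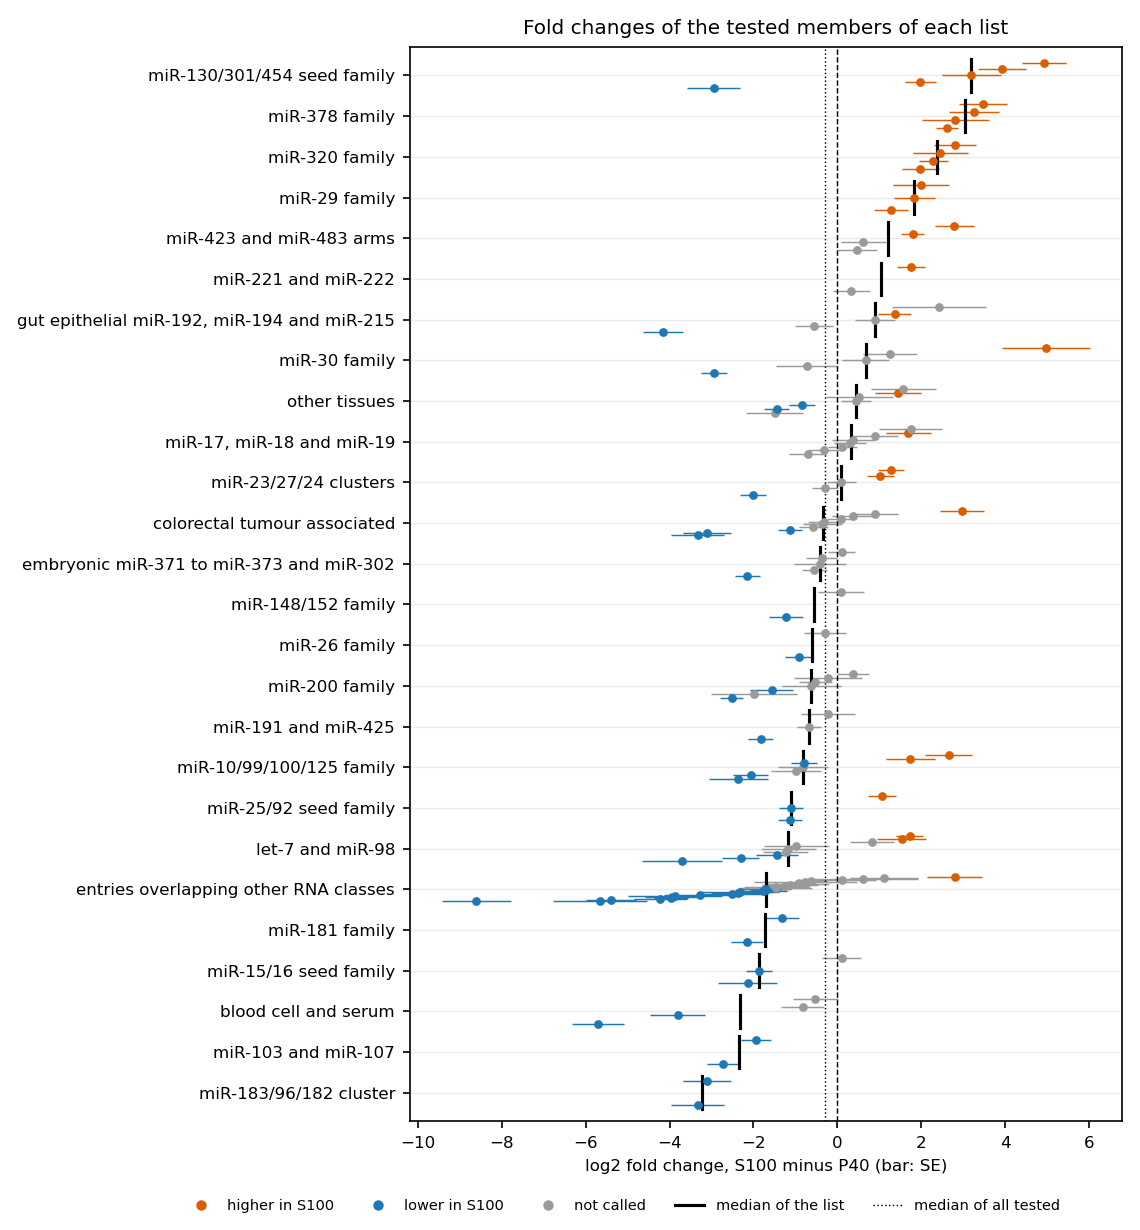
Log2 fold change (S100 over P40) with standard error for each tested member of each list, with a black bar at the list's median and a dotted line at the median of all 227 tested miRNAs, -0.30. All members of the miR-320, miR-378 and miR-29 families lie above 0, and let-7, the combined miR-99/100, miR-10 and miR-125 family, and the clusters of miR-23, miR-27 and miR-24 hold called members on both sides of 0.

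Several families held called members in both directions. Of 32 seed groups with at least 2 tested members that had a sequence, 6 held both a higher and a lower member. Over all tested miRNAs 25.1% were called higher and 27.8% lower. By these shares alone some groups would hold both, so the count by itself does not show that families split. Of 9 tested let-7 members 2 were higher and 3 lower (median -1.17). let-7 miRNAs are brakes on growth genes such as RAS, HMGA2 and MYC. let-7a-5p had 1350, 633 and 1007 CPM in S100, against 4325, 3279, 7850 and 4191 CPM in P40 (-2.31 ± 0.44, edgeR adjusted p = 1.3e-04). let-7b-5p, which differs from it by A17G and A19G, had 7974, 4344 and 6558 CPM in S100, against 1881, 1989, 2179 and 1502 CPM in P40 (1.73 ± 0.32, edgeR adjusted p = 1.3e-04). Neither overlapped between groups, and the order of the pair was turned round. let-7a-5p made up 14.5%, 12.7% and 13.3% of the counts of both in S100, against 69.7%, 62.2%, 78.3% and 73.6% in P40.

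let-7c-5p, which carries only A19G, had 529, 541 and 519 CPM in S100, against 376, 53.7, 207 and 79.1 CPM in P40 (1.53 ± 0.58, edgeR adjusted p = 0.029), and its call was lost without P40 replicate 2. let-7f-5p (G12A) was lower by the test at -3.71 ± 0.96 with overlapping groups, and at -2.35 without P40 replicate 3. let-7e-5p (U9G) was lower at -1.44 ± 0.51, and lost its call without any 1 S100 library or P40 replicate 3 or 4. let-7d-5p (-1.23 ± 0.54), let-7g-5p (-1.17 ± 0.65), let-7i-5p (0.82 ± 0.52) and miR-98-5p (-0.98 ± 0.77) were not called. let-7a-5p and let-7b-5p kept their calls in each setting run. The summed share of the family was 0.775% to 1.30% in S100, against 0.693% to 2.13% in P40, and overlapped.

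miR-23a-3p and miR-23b-3p, from paralogous clusters on chromosomes 19 and 9, differ by U19A and by the 3′ end. miR-23a-3p had 13026, 8672 and 13096 CPM in S100, against 3197, 4031, 6086 and 5851 CPM in P40 (1.27 ± 0.31, edgeR adjusted p = 0.0016). miR-23b-3p had 806, 811 and 1384 CPM in S100, against 3385, 3762, 4253 and 4744 CPM in P40 (-2.01 ± 0.32, edgeR adjusted p = 2.1e-05). miR-23a-3p was 94.2%, 91.4% and 90.4% of the pair in S100, against 48.6%, 51.7%, 58.9% and 55.2% in P40. miR-27a-3p, from the miR-23a cluster, was higher too (1.02 ± 0.32), with its call lost without P40 replicates 3 and 4 together. miR-27b-3p (-0.30 ± 0.32) and miR-24-3p (0.09 ± 0.35), which both clusters encode, were not called, so 2 of 5 tested were higher and 1 lower (median 0.09).

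In the combined miR-99/100, miR-10 and miR-125 family 2 of 7 tested were higher and 3 lower (median -0.82). miR-100-5p, a repressor of MTOR, had 2516, 2072 and 2322 CPM in S100, against 313, 215, 450 and 474 CPM in P40 (2.66 ± 0.56, edgeR adjusted p = 3.9e-04). miR-99b-5p, which differs from it by A1C, U11A, A16C and U21C, had 565, 420 and 330 CPM in S100, against 1755, 1451, 1279 and 3005 CPM in P40 (-2.07 ± 0.42, edgeR adjusted p = 3.1e-04). miR-100-5p was 81.7%, 83.1% and 87.5% of the pair in S100, against 15.2%, 12.9%, 26.0% and 13.6% in P40. miR-99a-5p, a single substitution (A16U) from miR-100-5p, was not called (-0.82 ± 0.60). miR-100-5p was 90.7%, 93.4% and 90.6% of that pair in S100, against 50.0%, 26.7%, 52.0% and 75.0% in P40. miR-125b-5p was higher (1.74 ± 0.58) and miR-125a-5p lower (-0.80 ± 0.31), but miR-125a-5p lost its call without any 1 S100 library (-0.62 to -0.23) and without P40 replicate 3 (-0.28) or 4 (-0.36). miR-10b-5p (-2.36 ± 0.70) lost its call without P40 replicate 3.

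In the miR-25/92 seed family 2 of 3 tested were lower and 1 higher (median -1.11), and the family took 8.37% to 10.1% of counts in S100, against 15.5% to 27.8% in P40. miR-92b-3p, which differs from miR-92a-3p by U10C, G21C and U22C, was higher, with 1997, 2984 and 3156 CPM in S100, against 1881, 1451, 1072 and 791 CPM in P40 (1.06 ± 0.34). Its value was 0.49 and not called without P40 replicates 3 and 4 together. miR-25-3p (-1.11 ± 0.29) was -0.62 without S100 replicate 3 and -0.65 without P40 replicate 3, and its call was lost without S100 replicate 2 or 3 or P40 replicate 3. Both calls on the lower side of this family were thus lost without S100 replicate 2, and both were also lost with no filter on low counts.

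Of 73 pairs of near-identical miRNAs (at most 4 substitutions apart), 34 did not overlap between the groups in the percent held by the first member. Of the 17 that differ by a single substitution, 8 did not overlap. By level, 52.9% of all tested miRNAs did not overlap, and neither count of pairs exceeds that share. The counts are therefore not particular to near-identical pairs. Many pairs also reuse the same members, those of let-7 above all. A ratio within a library shows that the members changed unequally and not which of them changed. miR-30a-3p was 88.9%, 72.0% and 80.9% of its pair with miR-30e-3p (G18A) in S100, against 0%, 14.3%, 0% and 0% in P40. miR-106a-5p was 37.7%, 42.0% and 43.5% of its pair with miR-17-5p (A1C) in S100, against 20.8%, 22.8%, 16.7% and 27.1% in P40. miR-106a-5p was the 1 higher member of 8 tested from the miR-17, miR-18 and miR-19 families (1.69 ± 0.54; median 0.33), and its call was lost without P40 replicates 3 and 4 together.

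**Figure D5:**
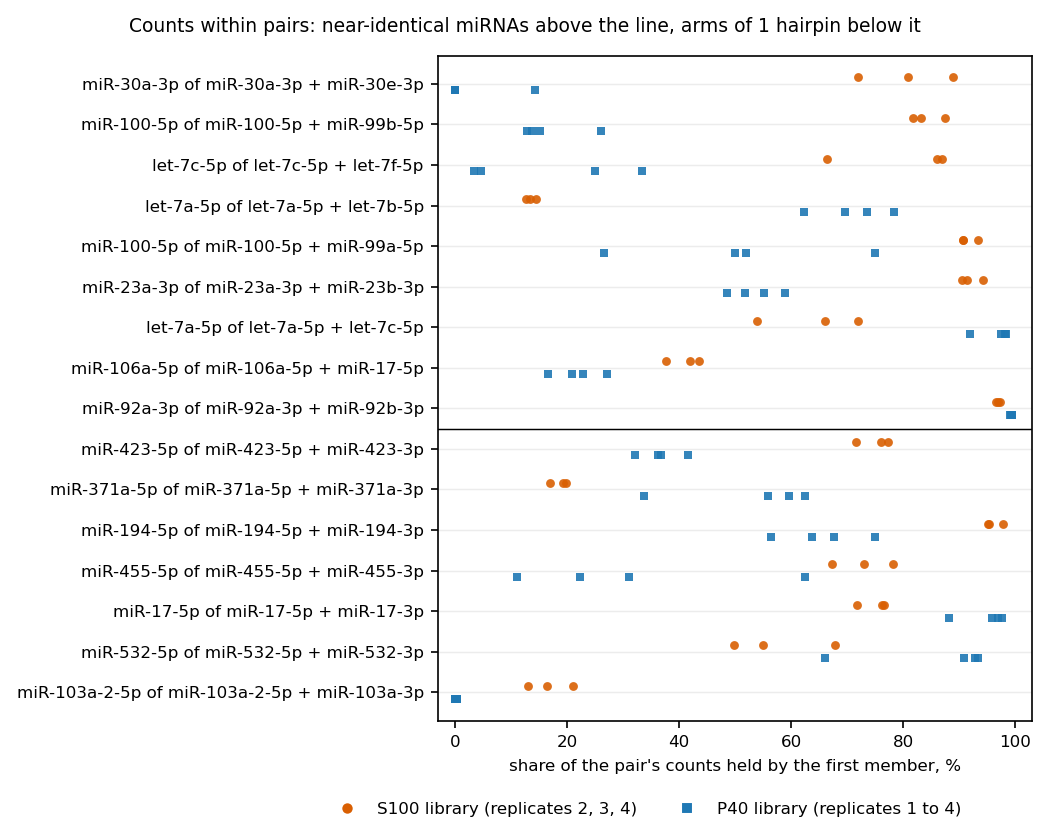
Percent of the counts of 2 related miRNAs that the first of them held in each library, for 9 near-identical pairs (above the line) and 7 pairs of arms from a hairpin (below it). let-7a-5p held 12.7% to 14.5% of its pair with let-7b-5p in S100 and 62.2% to 78.3% in P40.

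Arms of a hairpin were compared as well. Of 37 hairpins with both arms tested, 5 had both arms called in the same direction, 1 had them called in opposite directions, 20 had 1 arm called and 11 had neither. The opposite case was miR-103a-2, with miR-103a-2-5p higher (585, 308 and 587 CPM in S100, against 62.7, 0, 34.6 and 0 CPM in P40) and miR-103a-3p lower. miR-103a-3p is also made from a second hairpin, in PANK3. Among 26 hairpins with at least 1 arm called, the percent held by the 5p arm did not overlap between the groups in 12. Over all tested miRNAs 52.9% were called and 52.9% did not overlap in level. By that share alone, 1 called arm beside an uncalled arm would be common, and it does not show that the arms differ. In miR-25 the called 3p arm was at -1.11 ± 0.29 and the uncalled 5p arm at -0.97 ± 0.51.

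miR-423-5p was 76.1%, 77.2% and 71.5% of both arms in S100, against 36.7%, 32.0%, 36.2% and 41.5% in P40. miR-423-3p had 19578, 17936 and 23219 CPM in S100, against 6707, 8438, 24829 and 18502 CPM in P40 (0.47 ± 0.48) and was not called. In miR-371a the 5p arm was 16.9%, 19.8% and 19.2% of both arms in S100, against 59.5%, 55.9%, 62.5% and 33.7% in P40. miR-371a-5p had 3692, 2780 and 4273 CPM in S100, against 13101, 13920, 23757 and 12572 CPM in P40 (-2.15 ± 0.29, edgeR adjusted p = 3.5e-06), while miR-371a-3p was not called (0.11 ± 0.32). In miR-194 the 5p arm was 95.3%, 97.8% and 95.2% in S100, against 63.8%, 67.6%, 56.4% and 75.0% in P40. miR-194-3p had 56.5, 25.0 and 47.2 CPM in S100, against 1316, 645, 588 and 633 CPM in P40 (-4.16 ± 0.48, edgeR adjusted p = 2.0e-07). In miR-17 the 5p arm was 71.8%, 76.3% and 76.5% in S100, against 95.8%, 96.9%, 88.2% and 97.7% in P40, with miR-17-3p higher (3.24 ± 0.68) and miR-17-5p not called (0.38 ± 0.51).

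Members of a genomic cluster, taken as hairpins within 10000 bases of each other, did not always move as a unit. Only the 177 hairpins of tested miRNAs with a position in the sequence set were used, so clusters can lack members. The hairpin of miR-501, for example, was not placed. Over all tested miRNAs 25.1% were called higher and 27.8% lower, so some clusters would hold both by these shares alone. Of 28 such clusters, 1 of which holds miR-941 alone, 5 held a higher and a lower miRNA. These were let-7a-2 with miR-100 on chromosome 11, miR-192 with miR-194-2 on chromosome 11, let-7a-3 with let-7b on chromosome 22, miR-17~92 on chromosome 13 and miR-106a with miR-92a-2 on chromosome X. In the last 2 the lower member is miR-92a-3p, whose call was lost without S100 replicate 2. let-7a-5p, miR-92a-3p and miR-194-5p come from more than 1 hairpin, so their counts do not belong to 1 cluster alone. Other clusters had all tested members called in 1 direction, among them 3 of 3 lower in let-7e, miR-125a and miR-99b on chromosome 19, 2 of 2 lower in miR-181a and miR-181b on chromosome 1, 2 of 2 lower in miR-15b and miR-16-2 on chromosome 3, and 2 of 2 higher in each miR-29 cluster. In the miR-23a cluster 3 of 4 were higher. The calls of let-7e-5p, miR-125a-5p, miR-181b-5p and miR-15b-5p among these were lost in several fits with a library left out, as given with their families. Leaving out an S100 library also moved the median of all tested miRNAs by 0.32 to 0.41.

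The lists that mark tissues put the fractions beside their cell of origin. Of the gut epithelial miR-192, miR-194 and miR-215 group 1 of 5 tested was higher and 1 lower (median 0.90). miR-192-5p, a p53 target abundant in intestine, had 19059, 13812 and 16194 CPM in S100, against 4200, 4300, 10478 and 6246 CPM in P40 (1.37 ± 0.39), and 2.17 without P40 replicate 3. All 8 gut epithelial markers were counted in both fractions. Their summed CPM, scaled here to library totals without TMM factors, was 25919 to 29536 in S100, against 36555 to 42650 in P40. The embryonic miR-371 to miR-373 group, which Caco-2 libraries hold at high level, had 0 higher and 1 lower of 5 tested (median -0.41). In it miR-373-3p had 34155, 20961 and 50003 CPM in S100, against 43691, 61862, 44367 and 55269 CPM in P40 (-0.55 ± 0.30). Of the colorectal tumour associated list 1 of 10 was higher and 3 lower (median -0.34). miR-21-5p, its best known member, had 25175, 23870 and 34800 CPM in S100, against 40056, 25261, 20126 and 19214 CPM in P40 (0.10 ± 0.34) and was not called.

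Of blood cell and serum miRNAs 0 of 4 tested were higher and 2 were lower (median -2.32). miR-486-5p had 41.1, 12.5 and 31.5 CPM in S100, against 2445, 1774, 1349 and 633 CPM in P40 (-5.71 ± 0.62, edgeR adjusted p = 8.1e-08). Its S100 levels rest on 8, 3 and 6 counts. miR-451a, a red cell miRNA, had 46.2, 41.6 and 99.6 CPM in S100, against 439, 752, 1245 and 1107 CPM in P40 (-3.80 ± 0.66, edgeR adjusted p = 8.0e-05). The 8 blood and serum markers, also scaled without TMM factors, summed to 613 to 935 CPM in S100, against 3782 to 4859 in P40. Among them miR-150-5p was at 0 in S100 and miR-142-3p at 0 in P40. The cells had grown with serum before the serum-free day, and its part in these values was not tested. Of the miRNAs of other tissues 1 of 7 tested was higher and 2 lower (median 0.44). miR-126-3p, an endothelial miRNA, was the higher one (1.44 ± 0.55) and lost its call without P40 replicate 2, and miR-205-5p (-1.45 ± 0.29, and -0.96 without P40 replicate 3) and miR-375-3p (-0.84 ± 0.32) were the lower ones. The call of miR-375-3p was lost when any library but P40 replicate 1 was left out. The muscle miRNA miR-206 and the neural miR-124-3p had no count in either fraction.

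GC content differed little between the called groups, and the first base differed more. Median GC content was 50.0% in the miRNAs called higher, 52.3% in those called lower and 50.0% in those not called. Across 199 tested miRNAs the Spearman correlation of GC content with the log2 fold change was -0.03, and it was 0.11 across the 180 that overlap no other RNA class. These points share the same 7 libraries. The first base was A in 38.5% of the miRNAs called higher and 17.3% of those called lower, against 29.6% of all tested with a sequence. It was C in 13.5% of those called higher and 25.0% of those called lower, against 15.6% of all. It was G in 7.69% of those called higher and 21.2% of those called lower, against 11.6% of all. Those called lower include entries that overlap other RNA classes, such as miR-12136 and miR-4516 with G and miR-7704 and miR-3651 with C. Unlike GC content, the first base was not summarised without these entries. The 4-base motif GGAG, part of a motif tied to vesicle sorting, stood in 13.5% of those called higher and 13.5% of those called lower, against 10.1% of all tested with a sequence and 15.7% of 2370 mature sequences in RefSeq. CCCU stood in 13.5% of those called higher and 9.62% of those called lower, against 10.1% of all tested and 11.9% of RefSeq. UGUG stood in 17.3% of those called higher and 5.77% of those called lower, against 14.1% of all tested and 12.9% of RefSeq. Each motif was searched on the miRNA strand alone, and a match is a description of the letters.

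Low counts across the 5 groups kept most miRNAs out of the test. Of 1043 miRNAs listed in any library, 858 were listed in S100, 466 in P40 and 423 in both. Of the 816 left out of the test, 111 were counted in all 3 S100 libraries and in no P40 library, and 3 in all 4 P40 libraries and in no S100 library. A floor of 3 counts is 12.3 to 15.5 CPM in an S100 library and 102 to 234 CPM in a P40 library, so a miRNA below the P40 floor cannot be called absent from P40. miR-4707-3p had 51, 71 and 80 counts and miR-33b-5p, from an intron of the lipid regulator SREBF1, had 83, 68 and 58 counts in S100, against 0 counts in P40. In the other direction miR-150-5p had 0 counts in S100, against 3, 4, 7 and 12 counts in P40. miR-664b-5p had 0 counts in S100, against 4, 4, 1 and 5 counts in P40.

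The other fractions give the same miRNAs a place beside S100 and P40. miR-22-3p averaged 116247 CPM in S100, 15995 CPM in P40, 10517 CPM in P100 (the second pellet), 12318 CPM in total exRNA and 11654 CPM in cell lysate. miR-320a-3p averaged 93187 CPM in S100, 19130 CPM in P40, 34900 CPM in P100, 9274 CPM in total exRNA and 21896 CPM in lysate. Both stood highest in S100 and were within several-fold of each other in the rest. miR-7704 averaged 1662 CPM in S100, 70214 CPM in P40, 159772 CPM in P100, 88781 CPM in total exRNA and 33742 CPM in lysate, and was lowest in S100. miR-4485-3p averaged 21.6 CPM in S100, 8923 CPM in P40, 15331 CPM in P100, 3480 CPM in total exRNA and 1227 CPM in lysate. Against P100, which like P40 was taken up in Trizol directly, 136 miRNAs (59.9%) were called in S100. Between the pellets, P100 against P40, 11 (4.85%) were called, and these comparisons share libraries. miR-106a-5p (log2 fold change -4.17) and miR-454-3p (-3.21), which went opposite ways between S100 and P40, were both lower in P100 than in P40.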

How the data were processed

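Small RNA was turned into libraries with version 2 of the RealSeq-AC kit and read from 1 end over 50 bases, per the labels' protocols. The authors deposited a file for each library with the raw count of every mature human miRNA found, and a miRNA not listed was taken as 0. The submitters' processing notes name cutadapt 1.16, FastQC, Bowtie2 and GRCh38. Alignment parameters, how reads matching more than 1 miRNA were counted, and the miRNA release are not given in the sources used here.

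A library had to list at least 100 miRNAs, which kept 18 of 19 and dropped S100 replicate 1. The deposited counts were analysed with edgeR 4.0.16 (R 4.3.3). filterByExpr (minimum count 10, minimum total 15) on the 5 groups left 227 of 1043 miRNAs, which held 98.5% to 99.0% of the counts of the 7 libraries compared. A robust quasi-likelihood model with TMM scaling was fitted to all 5 groups, so they share 1 estimate of the spread (biological coefficient of variation 0.419), and S100 was contrasted with P40. The procedure was tested on simulated counts. No pair of libraries of a group agreed within sampling noise.

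miRNAs named are the 15 largest rises and 15 largest falls among called, non-overlapping miRNAs whose higher group averaged at least 100 CPM, the top 10 of each group by share, list members, arm pairs with a called arm, and called miRNAs with no count in a group. The members and the 26 lists were chosen with earlier results of these data known, so lists are described by counts and medians without a test. The batch number in the labels equals the replicate number, so it pairs libraries by label. Deviations of same-numbered S100 and P40 libraries from their group means correlated at -0.13, -0.14 and -0.21. Alternatives were other scalings (library size, median of ratios, upper quartile), no or a stricter filter, a fit of the S100 and P40 libraries only, a fit without robust estimation, thinning to equal depth, the replicate block, DESeq2 1.42.0 and leaving out each library. Leaving out a pair of P40 libraries was added after seeing the data.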

Additional observations from a re-analysis of the deposited data

Results flagged for a closer look

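In 11 of 168 named miRNAs 1 of the 4 P40 libraries stood far from the other 3, by a gap that chance gives in about 1 in 20 groups. The 11 are little more than 1 in 20 of the 168, so many of them may be chance. P40 replicate 4 held the high value for miR-296-5p (791 CPM, others 251 to 322), miR-532-3p (1344, others 322 to 415), miR-574-3p (949, others 207 to 251), miR-663b (1028, others 215 to 313) and miR-200b-5p (237, others 53.7 to 69.2). P40 replicate 1 was high for miR-194-3p (1316 CPM, others 588 to 645) and miR-663a (7209, others 2293 to 2974), and low for miR-320c (251, others 311 to 322). P40 replicate 3 was high for miR-371a-5p (23757 CPM, others 12572 to 13920) and was the only P40 library with miR-1260b (34.6 CPM). P40 replicate 2 was the only one with miR-30a-3p (53.7 CPM). The values of miR-1260b and miR-30a-3p are 1 count each, and that of miR-200b-5p is 3 counts. Of 26 list shares, that of miRNAs of other tissues was flagged, at 1.96% in P40 replicate 3 and 1.48% to 1.53% in the other P40 libraries.

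S100 replicate 1, left out for its depth, held 48 counts of 28 miRNAs. Of these, 15 miRNAs with 27 counts were called higher in the other S100 libraries and 3 with 9 counts were called lower. miR-378a-3p had 6 of the 48 counts, 12.5% (exact 95% binomial interval 4.73% to 25.2%), against 5.17% to 5.58% in the other S100 libraries and 0.812% to 1.07% in P40. miR-92a-3p had 6 counts as well, and the same interval covers both its range in the other S100 libraries (7.07% to 8.80%) and that in P40 (13.5% to 24.8%). miR-22-3p and miR-423-5p had 3 counts each (1.31% to 17.2%), which reaches both groups too.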

How the results depend on the processing

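Against 57 miRNAs higher and 63 lower, counts were 53 and 70 with library size alone, 67 and 55 with median-of-ratios factors, 59 and 59 with upper quartile scaling, and 68 and 57 by DESeq2. With no filter 101 were higher and 53 lower (65.6% of calls higher, against 47.5%), where 1043 miRNAs were tested. These include all 57 of the higher calls above, but only 39 of the 63 lower ones. Thinning every library to the smallest total gave 36 and 37 among 140 tested. Leaving out 1 library gave 54 to 68 higher and 44 to 64 lower, and leaving out P40 replicates 3 and 4, or 1 and 2, gave 53 and 63, or 69 and 47. Without S100 replicate 2, 3 or 4 all 57 higher calls were kept, but 41, 47 and 46 of the 63 lower ones. No called miRNA changed sign in the 17 planned settings. Without P40 replicates 1 and 2, miR-10401-5p turned to 0.61 (edgeR adjusted p = 0.720), with 2 libraries fewer and the cause not tested. With the replicate block 59 were higher and 62 lower, 56 and 61 of them shared with the calls above. Of named miRNAs it ended only the calls of miR-10401-5p, miR-126-3p and miR-375-3p. Settings moved the median log2 fold change of all tested miRNAs by -0.15 (library size), 0.30 (median of ratios), 0.14 (upper quartile), 0.67 (no filter) and 0.51 (without P40 replicate 3). Leaving out S100 replicate 2, 3 or 4 moved it by 0.36, 0.41 and 0.32, and P40 replicate 4 by 0.29. Without P40 replicates 1 and 2 together it moved by 0.53. Values given for a miRNA without these libraries carry that shift, so they are not its own change alone. Scaling methods alone moved it by -0.15 to 0.30, so changes of that size depend on scaling. Of 99 named calls, 65 held in the same direction in every setting where the miRNA was tested, 51 of them in all 19 settings run and the rest in at least 16. P40 depth, 10490 to 26096 counts, limits what can be said of rare miRNAs.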
